A study of Mus musculus with 14 samples.

Results

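The genes described here encode the histones that are made outside S phase and replace the bulk histones of chromatin, together with the linker histones of the same kind. They were chosen by name and are 9 genes: the H2A.Z genes *H2afz* and *H2afv*, the H3.3 genes *H3f3a* and *H3f3b*, the H2A variant genes *H2afx*, *H2afy* and *H2afj*, and the linker histone genes *H1f0* and *H1fx*. The data set holds 43915 genes with a value in every sample of the first experiment and 33467 in the second. *H1fx*, on chromosome 6 from 87980421 to 87981637, was listed at an FPKM of 0 in all 14 samples, in the first experiment at an unnamed locus matched by its position. A listed 0 can be a failed estimate and is not read here as absent expression. The gene was therefore not tested, and 8 of the 9 genes could be compared.

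All samples were C57BL/6 CD4+ T cells activated in culture for 3 days. According to the paper, the stimulus in both experiments was antibody against CD3 together with antibody against CD28. The cultures were nonpolarizing (Th0), which directs cells to no helper subset. For the first experiment the paper also states that the cells were sorted as naive and given IL-2. Expression was measured by RNA-Seq as FPKM, the density of sequenced fragments scaled to transcript length and library size. Deletion was driven by a *Cd4*-Cre transgene, which acts in developing T cells and therefore leaves other cells of the mouse intact. In the first experiment, 4 HDAC1cKO-HDAC2HET samples (HDAC1f/f HDAC2f/+ CD4-cre+, without either *Hdac1* allele and with 1 *Hdac2* allele) were compared with 4 WT samples. In the second, 3 HDAC1cKO samples (HDAC1f/f CD4-cre+, with both *Hdac2* alleles) were compared with 3 WT samples, and these cells had been restimulated with anti-CD3 for 12 hours. Mice of both sexes were 6 to 12 weeks old and controls were littermates. Culture and genotype both differ between the 2 experiments, and the values of each sample were scaled on their own, so levels were tested only within an experiment.

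Histones H2A, H2B, H3 and H4 are mostly made during S phase, from clustered genes whose mRNAs end in a stem-loop instead of a poly(A) tail. Replacement variants are made from separate genes with introns or polyadenylated mRNAs throughout the cell cycle and are placed into chromatin by chaperones and remodelling complexes: H2A.Z at promoters and enhancers, H3.3 at transcribed genes, H2A.X as the substrate of DNA damage kinases, and macroH2A in silent chromatin. HDAC1 and HDAC2 are histone deacetylases that remove acetyl groups from histone tails.

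The variants H2A.Z and H3.3 are each encoded by a pair of genes, and because results below turn on the separate members of these pairs, the start of each coding sequence is shown, from the start codon, with the bases that differ within a pair in capitals. Sequences are those of GENCODE transcripts (vM21, GRCm38). The H3.3 coding sequences are 411 bases long and identical at 316 of them (76.9%), with 20 differences in the 90 bases shown.
H3f3a: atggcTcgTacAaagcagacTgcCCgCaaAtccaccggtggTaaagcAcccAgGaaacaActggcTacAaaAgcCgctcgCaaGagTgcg
H3f3b: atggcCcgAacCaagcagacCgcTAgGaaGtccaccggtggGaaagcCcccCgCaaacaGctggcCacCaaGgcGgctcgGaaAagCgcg
The H2A.Z coding sequences are 387 bases long and identical at 306 (79.1%), with 19 differences in the 90 bases shown.
H2afz: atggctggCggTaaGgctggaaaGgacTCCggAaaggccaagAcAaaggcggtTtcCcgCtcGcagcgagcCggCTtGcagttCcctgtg
H2afv: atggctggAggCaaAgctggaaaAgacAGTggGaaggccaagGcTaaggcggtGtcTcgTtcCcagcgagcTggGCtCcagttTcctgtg
The longest run shared within a pair was 23 bases for H3.3 and 14 bases for H2A.Z, which is shorter than a 50-base read, and no 50-base stretch of the *H3f3a*, *H3f3b*, *H2afz* or *H2afv* transcript was found in another of the 9 genes. Reads can still be shared with other loci. Of the 50-base stretches of the *H2afz* transcript, 69.6% also occurred in transcripts of other genes, mostly in *Tmcc1* (60.8%), and for *H3f3a* the share was 30.3%, with the overlapping opposite-strand RNA *Gm17275* holding the most (21.3%). The share was 0 for *H2afv* and between 5.68% and 9.66% for *H2afx*, *H2afy*, *H2afj*, *H3f3b* and *H1f0*.

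The RefSeq promoter table (GRCm38.p6) held 8 of the 9 genes, all but *H2afx*. The 250 bases before the start of both H2A.Z genes are shown, since these genes fell together in the comparison that follows, with CCAAT on either strand in capitals. The *H2afv* window is chr11:6444444-6444693 on the minus strand and overlaps no annotated exon. The *H2afz* window is chr3:137864237-137864486 on the plus strand and overlaps an exon of the neighbouring *Gm43403*.
H2afv promoter: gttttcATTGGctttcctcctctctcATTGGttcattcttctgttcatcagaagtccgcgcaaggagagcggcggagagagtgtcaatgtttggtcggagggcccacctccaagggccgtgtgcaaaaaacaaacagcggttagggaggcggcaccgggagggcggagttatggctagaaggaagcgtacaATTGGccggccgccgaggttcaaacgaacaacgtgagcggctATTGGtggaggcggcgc
H2afz promoter: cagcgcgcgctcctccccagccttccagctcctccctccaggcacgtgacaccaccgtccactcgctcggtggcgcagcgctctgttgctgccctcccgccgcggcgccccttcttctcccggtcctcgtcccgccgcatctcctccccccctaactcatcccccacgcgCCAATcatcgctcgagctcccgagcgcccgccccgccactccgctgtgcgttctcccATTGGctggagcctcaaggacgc
CCAAT was found 4 times in the *H2afv* window and 2 times in that of *H2afz*. It was present in 5 of the 8 windows and in 33.9% of all 32851 promoter windows of this length. It was also found 4 times in the *H3f3b* window, 3 times in that of *H2afj* and 1 time in that of *H3f3a*. It was not found in those of *H1f0*, *H2afy* or *H1fx*. The windows of *H3f3b*, *H2afj*, *H3f3a*, *H2afy* and *H1fx* overlap annotated exons of the gene itself, and that of *H1f0* overlaps an exon of *Gm49544*. The AAACACA box known from linker histone promoters was found, among the 8 windows, only in the *H3f3a* window (6.25% of all windows). The *H1f0* window ends at position 79028211, ahead of the GENCODE start of the gene at 79028450, and the bases between them were not searched.

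The deletions were visible in the data. *Hdac1* was at 78.1 ± 1.44 FPKM in WT and 8.30 ± 1.89 FPKM in HDAC1cKO-HDAC2HET cells (SD, n = 4), and at 75.6 ± 4.78 FPKM in WT and 10.1 ± 1.82 FPKM in HDAC1cKO cells (n = 3) (limma adjusted p = 2.75e-06 and 0.00207). *Hdac2* fell from 59.0 ± 1.04 to 35.4 ± 1.36 FPKM in HDAC1cKO-HDAC2HET cells, and was at 72.4 ± 8.65 FPKM in WT and 80.4 ± 6.91 FPKM in HDAC1cKO cells after restimulation (adjusted p = 0.582). Depth, estimated from the Cufflinks confidence bounds, was 25100000 to 59400000 fragments, lowest in HDAC1cKO-HDAC2HET replicate 3. The summed FPKM of 6 T cell markers was 946 to 1360 across samples, while that of B cell, myeloid, NK cell and erythroid markers was at most 1.21. *Cd8a* and *Cd8b1* summed to 3.28 to 5.96 FPKM in WT and 11.7 to 15.2 FPKM in HDAC1cKO-HDAC2HET cells. In the second experiment they summed to 3.80 to 4.86 FPKM in WT and 6.52 to 7.30 FPKM in HDAC1cKO cells. The paper reports that *Cd8a* rose in HDAC1cKO-HDAC2HET cells but stayed very low. It found CD8α protein absent or very low by flow cytometry, in cells depleted of CD8+ cells before naive CD4+ cells were sorted. The part of any CD8+ cells in the results was not tested. *Xist*, expressed in female cells, was at 58.9 to 65.2 FPKM in the WT and 26.0 to 33.7 FPKM in the HDAC1cKO-HDAC2HET samples of the first experiment, without overlap, and the part of this difference in the results was not tested. In the second experiment it was at 42.9 and 33.2 FPKM in WT replicates 1 and 3 and below 1 FPKM in WT replicate 2 and in all 3 HDAC1cKO samples, so sex and genotype are partly confounded there. A fit with sex, as given below, therefore sets the HDAC1cKO samples against WT replicate 2 alone.

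In activated WT cells the 8 genes spanned a wide range of FPKM. *H2afz* was the highest in every group, followed by *H3f3b*. After 3 days the WT means were 652.3 FPKM for *H2afz*, 301.3 for *H3f3b*, 194.4 for *H2afy*, 185.8 for *H3f3a*, 157.7 for *H2afx*, 136.2 for *H2afv*, 49.9 for *H2afj* and 44.4 for *H1f0*. In this order the sample ranges of *H2afy* and *H3f3a* overlapped, as did those of *H2afj* and *H1f0*, while all other neighbours were apart. In HDAC1cKO-HDAC2HET cells *H3f3a* (123.1 FPKM) overlapped with *H2afx* (118.7 FPKM) instead of *H2afy* (171.9 FPKM). In the restimulated WT samples *H3f3a* (372.2 FPKM) stood above *H2afy* (243.1 FPKM) and *H1f0* (34.3 FPKM) above *H2afj* (24.2 FPKM), with no overlap between neighbours in either group of that experiment. Replicates were close in the first experiment, with a median coefficient of variation over the 8 genes of 4.45% in WT and 4.42% in HDAC1cKO-HDAC2HET cells. They were more spread in the second, with 13.4% in WT and 9.98% in HDAC1cKO cells.

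**Figure D1:**
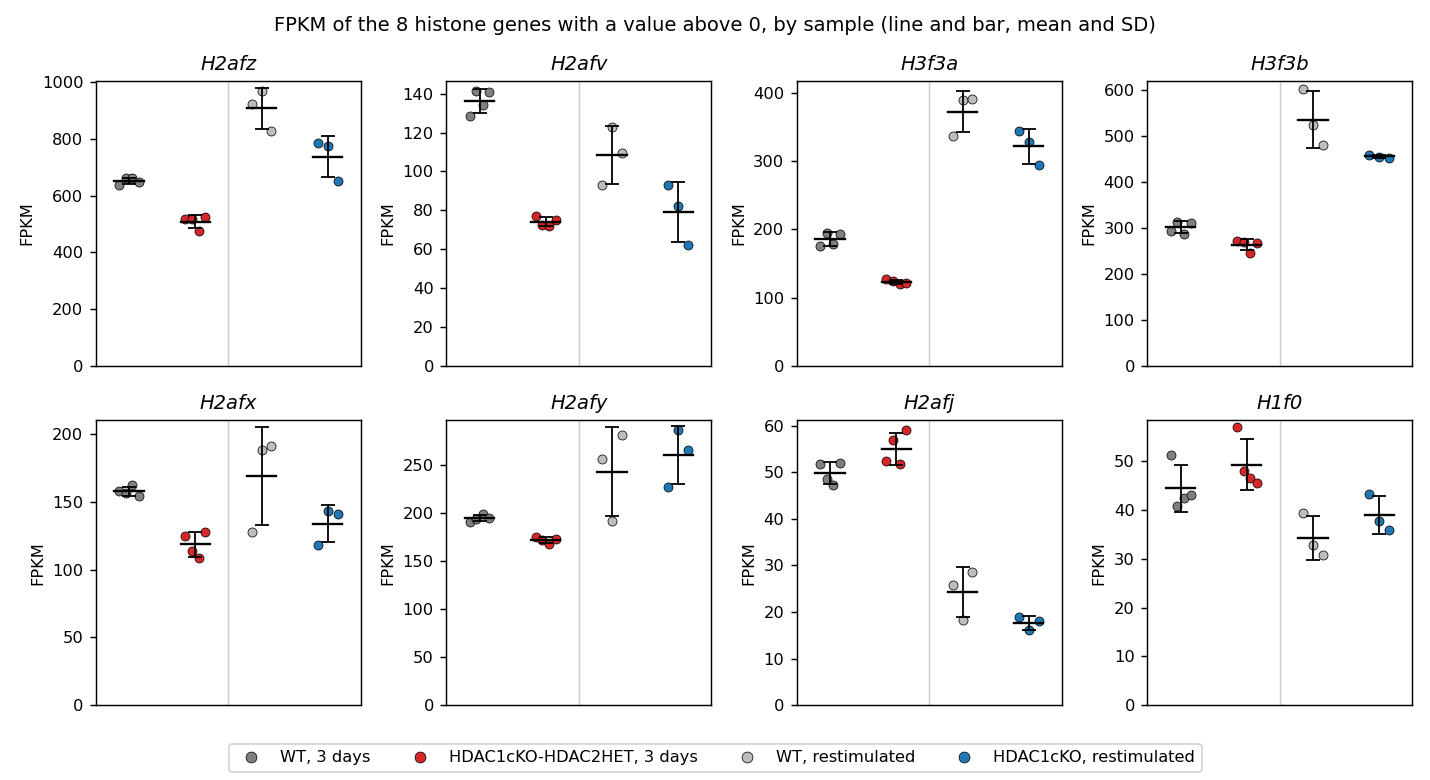
FPKM (vertical axes, each starting at 0) of the 8 genes with a value above 0, 1 point per sample, with the mean and SD of each group drawn as a line and bars. In the first experiment (left of each panel) the HDAC1cKO-HDAC2HET samples lie below all WT samples for *H2afz*, *H2afv*, *H3f3a*, *H3f3b*, *H2afx* and *H2afy*, and in the second (right) the groups are apart only for *H2afz*, *H2afv* and *H3f3b*.

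The first comparison asked how these genes differ when both *Hdac1* alleles and 1 *Hdac2* allele are lost. Both H2A.Z genes, both H3.3 genes, *H2afx* and *H2afy* were lower in HDAC1cKO-HDAC2HET than in WT CD4+ T cells, by 11.6% to 45.5% of the WT mean, whereas *H2afj* and *H1f0* did not pass the test. Thus 6 of the 8 genes tested passed at an adjusted p of at most 0.05 (limma on log2(FPKM + 0.1)), all 6 lower, where 27.6% of the 15133 genes tested passed as lower and 24.2% as higher. None of the 8 changed by 2-fold or more, compared with 11.2% of all genes tested. The median log2 fold change was -0.28 over the 8 genes and -0.05 over all genes tested. The groups were without overlap for the same 6 genes, all lower (26.9% of all genes tested). In either direction, 51.8% of all genes tested passed.

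*H2afv* (chromosome 11, 6427229 to 6444443, minus strand), which encodes H2A.Z.2, had the largest fall of the 8 genes. Its values were 128.3, 142, 134 and 141 FPKM in the WT samples and 77.3, 72.3, 72.2 and 75.1 FPKM in the HDAC1cKO-HDAC2HET samples. Every mutant sample was well below the lowest WT sample. The means were 136.2 ± 6.26 and 74.2 ± 2.49 FPKM (SD, n = 4 each), and the log2 change was -0.87 with a standard error (SE) of 0.04 (adjusted p = 3.49e-06 by limma, exact permutation p = 0.0286, the smallest that 4 samples against 4 allow). No other gene overlaps it.

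*H2afz* (chromosome 3, 137864487 to 137866922, plus strand) encodes H2A.Z.1, which differs from H2A.Z.2 by a few amino acids. Its values were 638, 662, 661 and 647 FPKM in WT and 516, 516, 475 and 525 FPKM in HDAC1cKO-HDAC2HET cells. The groups did not overlap, and the lowest mutant value came from the shallowest library. The gene was listed by name in 3 of the 4 WT samples and at a matched locus in all 4 mutant samples, with the same coordinates. The part of this in the values was not tested. The mean dropped from 652.3 ± 11.5 to 508.2 ± 22.4 FPKM, for a log2 change of -0.36 with an SE of 0.04 (adjusted p = 0.000149 by limma). *Tmcc1*, whose transcripts hold most of the 50-base stretches of *H2afz*, was at 15.5 ± 2.23 FPKM in WT and 5.81 ± 0.157 FPKM in HDAC1cKO-HDAC2HET cells (log2 fold change -1.39), far below the level of *H2afz*.

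*H3f3a* (chromosome 1, 180800832 to 180813943, minus strand) and *H3f3b* (chromosome 11, 116021912 to 116027962, minus strand) encode the same H3.3 protein. *H3f3a* was at 176, 195, 179 and 194 FPKM in WT and at 127, 124, 120.0 and 122 FPKM in HDAC1cKO-HDAC2HET samples, a mean of 185.8 ± 9.89 against 123.1 ± 2.82 FPKM. All mutant samples lay below all WT samples, and the log2 change was -0.59 with an SE of 0.04 (adjusted p = 1.8e-05 by limma). *Gm17275*, which lies on the other strand of the *H3f3a* locus, also fell, from 89.7 ± 4.76 to 52.0 ± 6.10 FPKM (log2 fold change -0.79, adjusted p = 0.000147). The library kit keeps strand, but whether the authors' mapping used it is not given in the sources used here, so the 2 transcripts may share reads.

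*H3f3b*, the more abundant of the pair, fell less. It was at 293, 313, 288 and 312 FPKM in WT and at 271, 269, 246 and 268 FPKM in HDAC1cKO-HDAC2HET samples. The gap between the groups was narrow but no samples overlapped. The means were 301.3 ± 12.96 and 263.4 ± 11.7 FPKM, and the log2 change was -0.19 with an SE of 0.05 (adjusted p = 0.00776 by limma).

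*H2afx* (chromosome 9, 44334694 to 44336077, plus strand) encodes H2A.X, which is phosphorylated around DNA double-strand breaks, and its mRNA exists in both stem-loop and polyadenylated forms. It was at 158, 157, 162 and 154 FPKM in WT and at 125, 114, 108 and 128 FPKM in HDAC1cKO-HDAC2HET samples. All 4 mutant samples were below the WT range. The mean fell from 157.7 ± 3.296 to 118.7 ± 9.14 FPKM (log2 change -0.41, SE 0.05, adjusted p = 0.00044 by limma). Because the kit selects poly(A) RNA, these values do not include most of the stem-loop form.

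*H2afy* (chromosome 13, 56073619 to 56136361, minus strand) encodes macroH2A1, an H2A with a large added domain. Its values of 191, 194, 198 and 194 FPKM in WT and 175, 172, 167 and 173 FPKM in HDAC1cKO-HDAC2HET samples had the least spread of the 8 genes relative to the mean, with coefficients of variation of 1.62% and 1.95%. The mean fell from 194.4 ± 3.15 to 171.9 ± 3.36 FPKM (log2 change -0.18, SE 0.03, adjusted p = 0.00062 by limma). In 1 fit over both experiments, which shares the larger spread of the second, this difference no longer passed (adjusted p = 0.175).

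*H2afj* (chromosome 6, 136808244 to 136810074, plus strand), an H2A variant gene of mammals, was at 51.8, 48.6, 47.3 and 51.9 FPKM in WT and at 52.4, 56.9, 51.9 and 59.0 FPKM in HDAC1cKO-HDAC2HET samples. The ranges touched at their ends, and the log2 difference of 0.14 (95% confidence interval 0.02 to 0.27) missed the threshold after adjustment (limma adjusted p = 0.0584, exact permutation p = 0.0571). It passed when samples were rescaled by their median ratios (adjusted p = 0.032), with sample weights (0.028) and without HDAC1cKO-HDAC2HET replicate 3 (0.0397).

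*H1f0* (chromosome 15, 79028450 to 79030504, plus strand) encodes the linker histone H1.0, which is known to accumulate in resting and differentiated cells and after treatment with deacetylase inhibitors. It was at 51.4, 40.8, 42.4 and 43.1 FPKM in WT and at 57.0, 48.1, 46.6 and 45.5 FPKM in HDAC1cKO-HDAC2HET samples. The groups overlapped because WT replicate 1 stood above 3 of the mutant samples. The mean was 44.4 ± 4.75 FPKM in WT and 49.3 ± 5.26 FPKM in mutant cells, a log2 difference of 0.15 with a 95% confidence interval of -0.07 to 0.37 (limma adjusted p = 0.229, exact permutation p = 0.2). The difference missed the threshold under 19 of the 20 alternatives tried, and passed with a block for the replicate number (limma adjusted p = 0.0261). Each mutant sample was above the WT sample of the same number, and whether the numbers pair the samples is not known. A change of 2-fold lies outside the confidence interval. Among the 12365 genes tested in both experiments, those whose values relative to WT were most like *H1f0* over the 14 samples were *Kcnk5*, *Dync1i2* and *Psmc2*, with root mean square differences of 0.104, 0.106 and 0.106 on the log2 scale.

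**Figure D2:**
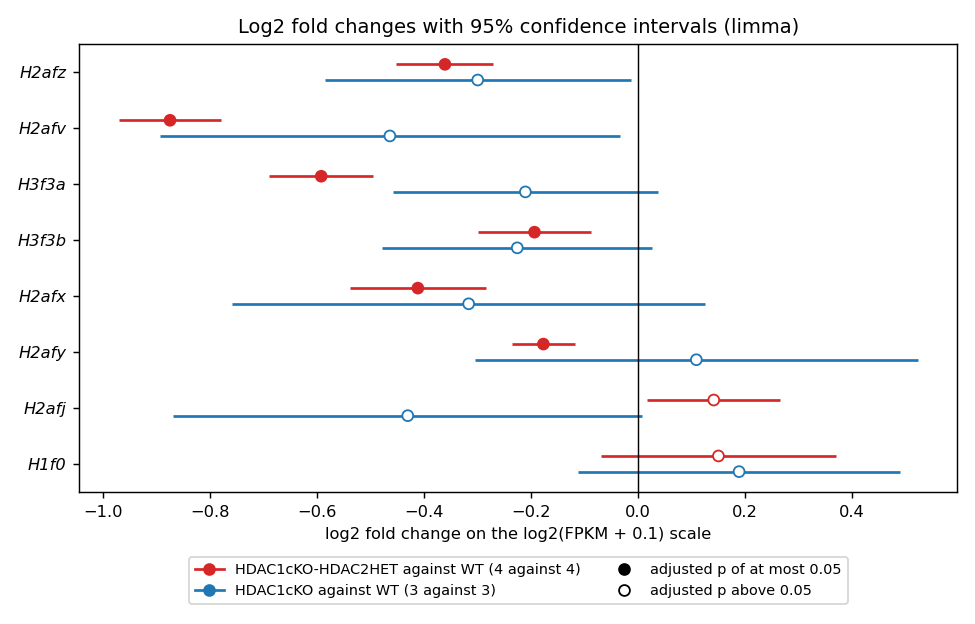
Log2 fold change of each gene on the log2(FPKM + 0.1) scale (horizontal axis) with its 95% confidence interval from limma, for HDAC1cKO-HDAC2HET against WT (red, 4 against 4 samples) and HDAC1cKO against WT (blue, 3 against 3), with filled points for an adjusted p of at most 0.05. The 6 filled points are all in the first comparison and run from -0.87 (*H2afv*) to -0.18 (*H2afy*).

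The second comparison asked the same for the loss of *Hdac1* alone, in restimulated cells. No gene of the 8 passed the test in HDAC1cKO against WT cells, and only 0.0927% of the 14026 genes tested did (13 genes), so this comparison called few genes of any kind. At an unadjusted p under 0.05 in the limma fit, *H2afv* and *H2afz* were lower, where 14.2% of all genes tested reached that level. The groups did not overlap for *H2afv*, *H2afz* and *H3f3b*, all 3 lower in HDAC1cKO cells (12.3% of all genes tested), each with an exact permutation p of 0.1, the smallest that 3 samples against 3 allow. In 1 fit over all 14 samples, which shares the smaller spread of the first experiment, *H2afv* and *H2afz* passed (limma adjusted p = 0.0378 and 0.0325), as did 1352 of 12365 genes.

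*H2afv* was at 93.2, 123 and 109 FPKM in WT and at 92.9, 82.2 and 62.4 FPKM in HDAC1cKO samples, with the highest mutant and the lowest WT sample next to each other. Its log2 difference was -0.46 (95% confidence interval -0.89 to -0.03, limma adjusted p = 0.327). *H2afz* was at 922, 970 and 829 FPKM in WT and at 786, 774 and 653 FPKM in HDAC1cKO samples, a log2 difference of -0.30 (-0.59 to -0.01, adjusted p = 0.337). For both genes HDAC1cKO replicate 3 was the lowest sample.

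*H3f3b* was at 601, 524 and 479 FPKM in WT and at 459, 455 and 453 FPKM in HDAC1cKO samples, so that a wide WT range stood above tightly grouped mutant samples. Its log2 difference was -0.23 (95% confidence interval -0.48 to 0.03, limma adjusted p = 0.387). *H3f3a* was at 337, 388 and 391 FPKM in WT and at 343, 328 and 293 FPKM in HDAC1cKO samples, and the groups overlapped through WT replicate 1 (log2 difference -0.21, -0.46 to 0.04, adjusted p = 0.401).

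*H2afx* was at 127, 188.3 and 191 FPKM in WT and at 118, 143 and 141 FPKM in HDAC1cKO samples, where WT replicate 1 fell among the mutant values (log2 difference -0.32, limma adjusted p = 0.474). *H2afy* was at 256, 191 and 281 FPKM in WT and at 227, 287 and 266 FPKM in HDAC1cKO samples, with fully mixed groups (log2 difference 0.11, 95% confidence interval -0.30 to 0.52, adjusted p = 0.794). With sex, read from *Xist*, in the fit, the differences were -0.50 for *H2afx* and 0.43 for *H2afy*. These values rest on WT replicate 2 as the only WT sample. *H1f0* was at 39.4, 32.8 and 30.8 FPKM in WT and at 43.4, 37.8 and 35.8 FPKM in HDAC1cKO samples (log2 difference 0.19, -0.11 to 0.49, limma adjusted p = 0.53). As in the first experiment, each mutant sample was above the WT sample of the same number, and whether the numbers pair the samples is not known. The interval of *H1f0* again left out a 2-fold change.

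*H2afj* was at 25.8, 18.3 and 28.6 FPKM in WT and at 18.9, 16.1 and 18.0 FPKM in HDAC1cKO samples (log2 difference -0.43, 95% confidence interval -0.87 to 0.01, limma adjusted p = 0.352). The WT sample that overlapped with the mutants, replicate 2, is the only WT sample of this experiment with *Xist* below 1 FPKM, as in all HDAC1cKO samples. With sex in the fit the difference was -0.05, which rests on replicate 2 as the only WT sample. The same sample is also the only WT sample of this experiment in which the gene was listed by name and not at a matched locus, as it was in HDAC1cKO replicates 1 and 2, and the part of this in the values was not tested.

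The difference between the fold changes of the 2 experiments was tested in a contrast over all 14 samples. It passed for *H3f3a*, which was further below WT in the first experiment (-0.59 against -0.21; difference -0.38, standard error 0.10, limma adjusted p = 0.0199), and for *H2afj*, which was above WT in the first and below it in the second (0.14 against -0.43; difference 0.57, standard error 0.17, adjusted p = 0.044). These are 2 of 8 genes, where 15.7% of the 12365 genes tested passed, 7.46% with a negative and 8.21% with a positive difference. The contrast shares 1 spread per gene between the experiments, so the larger spread of the second is understated. With a spread for each experiment, 1 of the 8 genes passed in each direction, beside 776 higher and 671 lower genes in all. The call for *H2afj* was lost when any single sample other than restimulated WT replicate 2 was left out (adjusted p of 0.0544 to 0.0944). With sex in the fit the difference for *H2afj* was 0.19, with restimulated WT replicate 2 as the only WT sample of its experiment. The call for *H3f3a* passed without each sample in turn (adjusted p of 0.0098 to 0.0485) and under 25 of 27 alternatives in all. It did not pass with sex in the fit (-0.32, on that same WT sample), nor under 1 other.

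*H2afv* had a difference of -0.41 (95% confidence interval -0.78 to -0.05, limma adjusted p = 0.122), which passed without HDAC1cKO replicate 3 (-0.57, adjusted p = 0.0134). *H2afy* had a difference of -0.29 (-0.62 to 0.05, adjusted p = 0.248), and -0.61 with sex in the fit, which rests on restimulated WT replicate 2. The differences for *H2afz* (-0.06), *H2afx* (-0.09), *H3f3b* (0.03) and *H1f0* (-0.04) were within their standard errors of 0.10, 0.18, 0.10 and 0.16. Culture and genotype both differ between the experiments and cannot be told apart here.

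Within each pair, the gene that fell more changed the share of the pair's mRNA, a summary chosen after the single values had been seen and given without a test. *H2afv* made up 16.7% to 17.9% of the H2A.Z FPKM sum in WT and 12.3% to 13.2% in HDAC1cKO-HDAC2HET cells. The mean share was 17.3% ± 0.559 and 12.8% ± 0.426 (SD, n = 4), while the sum went from 788.5 ± 15.9 to 582.4 ± 23.8 FPKM. *H3f3a* made up 37.5% to 38.4% of the H3.3 sum in WT and 31.3% to 32.8% in HDAC1cKO-HDAC2HET cells, and the sum went from 487.1 ± 22.7 to 386.5 ± 14.1 FPKM. In both pairs the groups did not overlap in the share.

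In the restimulated cells the shares overlapped. *H2afv* made up 9.18%, 11.3% and 11.7% in WT and 10.6%, 9.60% and 8.72% in HDAC1cKO samples. *H3f3a* made up 35.9%, 42.6% and 44.9% in WT and 42.8%, 41.9% and 39.3% in HDAC1cKO samples, with means of 41.1% and 41.3%. Without WT replicate 1 the difference in the *H3f3a* share was -2.41 percentage points in place of 0.204. The H2A.Z sum was 1016 ± 76.97 FPKM in WT and 817 ± 88.6 FPKM in HDAC1cKO cells, and the H3.3 sum was 907.2 ± 34.4 and 776.9 ± 28.4 FPKM (SD, n = 3).

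**Figure D3:**
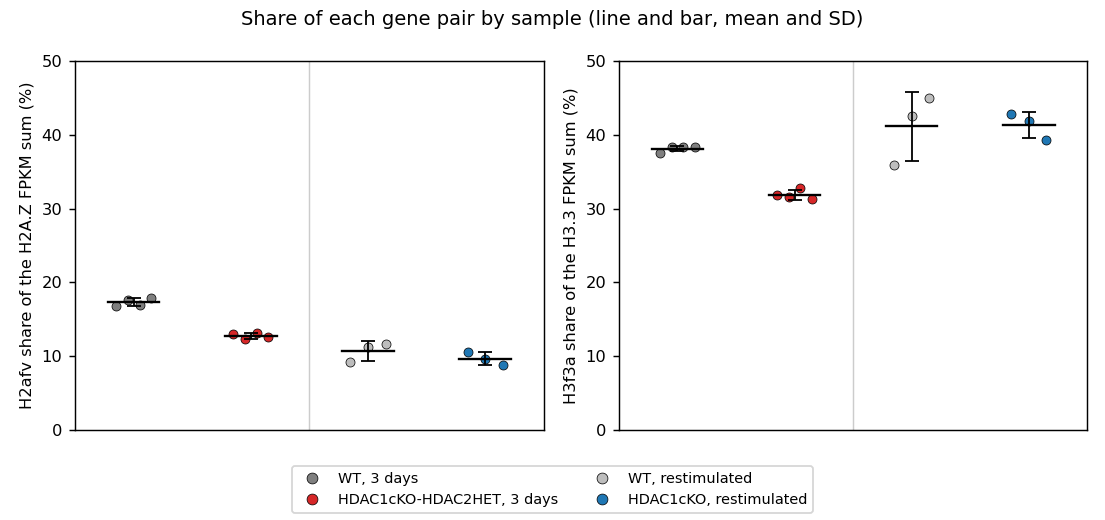
Share of *H2afv* in the FPKM sum of *H2afv* and *H2afz* (left) and of *H3f3a* in that of *H3f3a* and *H3f3b* (right), in percent, 1 point per sample with the mean and SD of each group. Both shares are lower in all 4 HDAC1cKO-HDAC2HET samples than in the 4 WT samples of that experiment, and overlap between WT and HDAC1cKO samples after restimulation.

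Other histone genes were examined beside these in HDAC1cKO-HDAC2HET cells. Of 61 replication-dependent core histone genes, 42 could be tested, and 14 were higher and 1 lower than in WT, where 24.2% of all genes tested were higher and 27.6% lower. Their median log2 fold change was 0.70, beside -0.28 for the replacement and H1.0 genes and -0.05 over all genes tested. The FPKM sum over the 49 genes of the list with a value was 62.8 ± 5.80 in WT and 108.4 ± 3.48 in HDAC1cKO-HDAC2HET cells, against 1722 ± 28.4 and 1364 ± 52.4 FPKM for the 8 genes described above. The kit selects poly(A) RNA, so these values do not include most stem-loop mRNA, and many of these genes have near-identical copies among which reads can be split.

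The genes of this list that passed with a change of at least 2-fold were all low. *Hist1h4d* rose from 5.97 ± 1.09 to 12.6 ± 0.925 FPKM and *Hist1h4b* from 3.17 ± 1.09 to 6.70 ± 1.22 FPKM. *Hist1h2bk* and *Hist1h2ak* rose from 3.17 and 2.12 to 6.47 and 4.51 FPKM. *Hist1h4k*, *Hist1h3i*, *Hist1h2ac*, *Hist3h2bb-ps*, *Hist1h3b* and *Hist1h4h* rose by 1.15 to 2.59 on the log2 scale to means of at most 1.61 FPKM, with *Hist1h4k* and *Hist3h2bb-ps* listed at 0 in at least 1 WT sample, while *Hist1h2af* fell from 1.298 to 0.399 FPKM. In the restimulated cells none of 39 tested passed, where only 0.0927% of all genes tested did. The sums over 47 genes with a value were 50.1 ± 11.6 FPKM in WT and 52.9 ± 9.07 FPKM in HDAC1cKO cells.

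Of the other linker histones, 4 of 5 tested were higher in HDAC1cKO-HDAC2HET cells and 1 did not pass, where 24.2% of all genes tested passed as higher. All 5 were low, with means of at most 4.18 FPKM in either group. *Hist1h1e*, a linker histone of the S phase cluster, rose from 2.10 ± 0.539 to 4.18 ± 0.570 FPKM (log2 fold change 0.98, limma adjusted p = 0.0033). *H1foo*, known from oocytes and counted among the 4, was at most 0.108 FPKM in WT and at 0.117 to 0.266 FPKM in HDAC1cKO-HDAC2HET cells. Its means were 0.0416 and 0.184 FPKM, so it reached the filter of 0.1 FPKM only through the mutant samples. Its pass is therefore no separate sign of a rise. Of 4 other core variants tested, *Cenpa*, the centromeric H3, rose from 128.1 ± 3.86 to 153.0 ± 8.14 FPKM (0.25, adjusted p = 0.00159), whereas *H2afy2*, which encodes macroH2A2, was at 0.265 to 0.586 FPKM in WT and was listed at 0 in 3 of the 4 mutant samples. The mutant mean of *H2afy2* was 0.0654 FPKM, so it reached the filter of 0.1 FPKM only through the WT samples. Another of the 4 variants, *Hist2h2be*, fell (-0.68, limma adjusted p = 0.0025).

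The factors that place the replacement variants moved in both directions, as did all genes tested, of which 24.2% passed as higher and 27.6% as lower. Of 16 H2A.Z exchange factors, 4 rose and 7 fell, with a median of -0.09 (-0.05 over all genes). *Srcap*, the ATPase of a complex that inserts H2A.Z, fell from 21.1 ± 1.29 to 12.4 ± 0.698 FPKM (log2 fold change -0.77, limma adjusted p = 2.6e-05), while *Ruvbl2*, a subunit shared by several remodellers, rose (0.43, adjusted p = 0.00143). Of 7 H3.3 chaperone genes, 1 rose and 4 fell, with a median of -0.28. These included *Ubn1*, a subunit of the HIRA complex (-0.69, adjusted p = 0.000303), and *Atrx*, the partner of DAXX (-0.53, adjusted p = 7.95e-05).

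Of 10 genes for kinases and readers of phosphorylated H2A.X, 7 fell and 1, *Atm*, rose, with a median of -0.32, beside 27.6% lower, 24.2% higher and a median of -0.05 over all genes tested. *Nbn* (-0.83), *Rad50* (-0.74) and *Mre11a* (-0.44), which encode the complex that binds DNA ends, were among those that fell, and their fall was also larger than in the HDAC1cKO experiment in the contrast over all samples (limma adjusted p = 0.000357, 0.00111 and 0.00205, where 7.46% of all genes tested passed in this direction). Of 10 replication-coupled chaperone genes, 3 rose and 4 fell, with a median of -0.0033. Of 19 proliferation genes, 7 rose and 4 fell, with a median of 0.02 and summed FPKM of 2603 ± 100.1 in WT and 2579 ± 42.2 in HDAC1cKO-HDAC2HET cells. In HDAC1cKO against WT cells no gene of any of these lists passed, where only 0.0927% of all genes tested did.

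**Figure D4:**
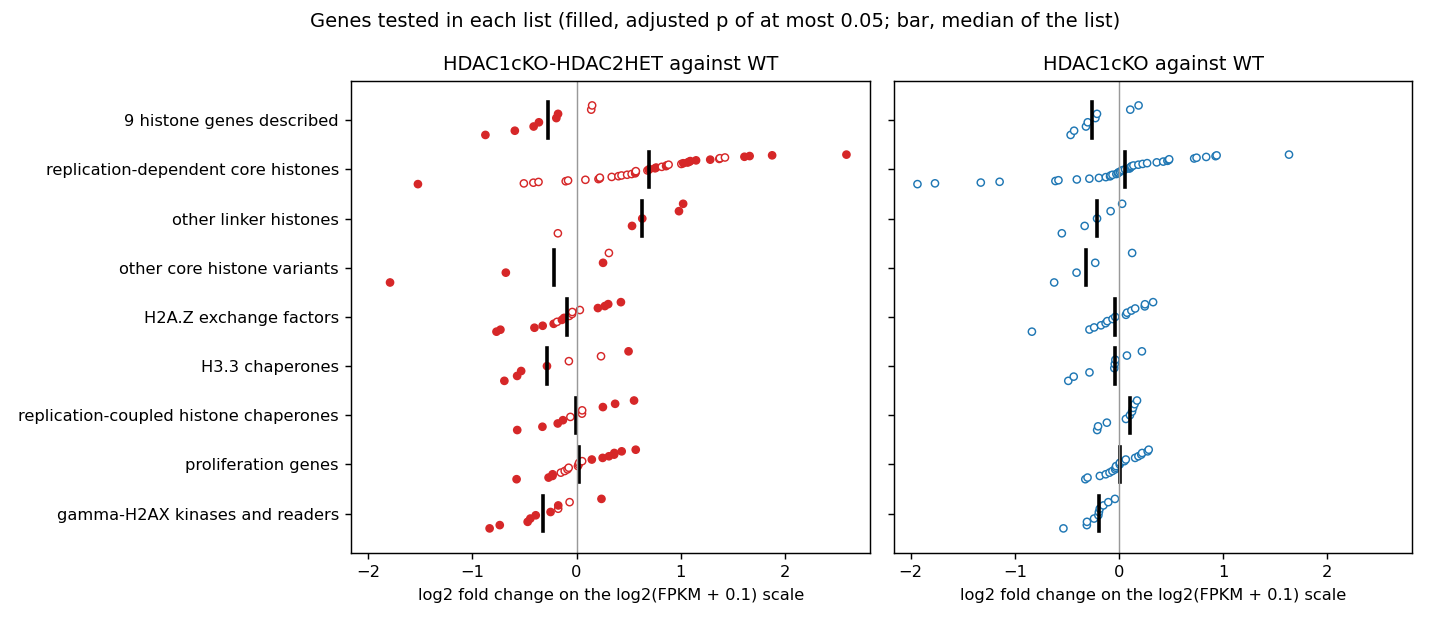
Log2 fold changes (horizontal axes) of the genes tested in each list, 1 point per gene, filled for an adjusted p of at most 0.05, with the list median as a bar, for HDAC1cKO-HDAC2HET (left) and HDAC1cKO (right) against WT. In the left panel the replacement and linker histones described here lie mostly below 0 (median -0.28) and the replication-dependent core histones mostly above it (median 0.70). The right panel has no filled points, in a comparison where only 0.0927% of all genes tested passed.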

How the data were processed

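Groups came from the sample labels. The authors mapped 50-base single reads of stranded poly(A) libraries to mm10 with TopHat and computed the deposited FPKM values with Cufflinks, according to the study's methods. The submitters' processing notes name STAR 2.5.2b, Subread 1.5.1 and edgeR instead. The deposited FPKM values come with confidence bounds, a status and unnamed assembled loci, which is the form of Cufflinks output. Which program mapped the reads is not settled here. No counts were used.

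Each library was assembled separately, so loci without a name were matched by position to GENCODE vM21 genes (shared bases at least 0.8 of the joint span), and matched loci listed at 0 were left out of the tests. *H2afv*, *H2afy* and *H3f3a* were matched loci in every sample. The test was limma 3.58.1 (R 4.3.3), with trended variances and p-values adjusted by Benjamini and Hochberg's method over all genes above a mean FPKM of 0.1, after adding 0.1 and taking log2. Fold changes of low genes are understated on this scale. Exact permutation tests were 2-sided, over 70 or 20 arrangements. In bulk samples, fewer cells of a type and less RNA per cell cannot be told apart. The study describes the samples of the first experiment as independently prepared batches of cells. No source used here says that those of the second were separate mice or cultures, so its p-values measure only the spread between these samples, which may be technical. The script was tested on simulated data.

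The genes and lists were chosen with earlier results of these data known. All 9 genes are named, and list genes where they passed with a 2-fold change. *Tmcc1*, *Gm17275*, *Hist1h1e*, *Cenpa*, *Hist2h2be*, *Srcap*, *Ruvbl2*, *Ubn1*, *Atrx*, *Atm*, *Nbn*, *Rad50* and *Mre11a* were named after their values were seen. Alternatives changed the pseudocount, filter, scaling, variance model, matching, samples and covariates.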

Additional observations from a re-analysis of the deposited data

Results flagged for a closer look

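*H3f3b* in HDAC1cKO-HDAC2HET replicate 3, the shallowest library, was at 245.9 FPKM, farther below the other 3 samples of its group than a test for single deviating samples allows. Of 16 groups of 4 samples examined, it was the only one so marked, and chance marks about 1 in 20 groups. When samples were left out singly, the log2 change of *H3f3b* ranged from -0.22 to -0.16 and passed the test (limma adjusted p of 0.00876 to 0.0248).

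The change of *H2afj* differed between the experiments by 0.57 on the log2 scale (limma adjusted p = 0.044), with the 4 mutant samples of the first experiment at 51.9 to 59.0 FPKM and the 3 of the second at 16.1 to 18.9 FPKM, each beside WT samples of its own. The change of *H3f3a* differed by -0.38 (adjusted p = 0.0199).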

How the results depend on the processing

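With HDAC1cKO-HDAC2HET against WT, 5 to 7 of the 8 genes passed under every setting that kept the matched loci, and 6 or 7 with each sample left out. With rows listed by name only, 3 could be tested and 1 passed. With HDAC1cKO against WT, 0 passed under every setting and with each sample left out, other than 1 fit over both experiments, where 2 did. For the difference, 2 passed, but 1 without a filter, with quantile normalization, without an intensity trend, with the replicate block and with sex in the fit, 0 by name only, and 1 to 2 with each sample left out. Same-numbered samples did not deviate together over all genes (correlations of -0.01 to 0.04), which cannot exclude that the numbers pair the samples. A letter b before the numbers of the second experiment is not explained in the labels. With the replicate block, 7, 0 and 1 genes passed for the 3 comparisons. *H1f0* passed in the first (limma adjusted p = 0.0261) and *H3f3a* was lost in the third (0.0804).

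Small differences between the experiments changed sign: *H3f3b* to -0.0197 with quantile normalization and -0.0132 with sample weights, *H2afx* to 0.019 with sample weights and 0.0854 with sex, and *H2afz* to 0.0381 with sex. With each sample left out, *H1f0* ranged from -0.14 to 0.0398, *H2afx* from -0.20 to 0.0969, *H3f3b* from -0.0554 to 0.11 and *H2afz* from -0.15 to 0.002. For HDAC1cKO against WT with each sample left out, *H2afy* ranged from -0.0541 to 0.22 and the *H3f3a* share from -2.41 to 2.11 percentage points. The cause was not tested. A pseudocount of 1 lowered the genes of at least 2-fold from 1689 to 742 and, for the difference, from 590 to 300. Genes passing in HDAC1cKO against WT went from 13 to 5 with the block, 8 without a trend, 19 with median ratio scaling, 27 at a mean FPKM of at least 1, 31 with sample weights and 7 by name only.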
